A study of Mus musculus with 9 samples.

Results

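The genes described here encode the constitutive proteasome, and they were taken as every mouse gene whose symbol is Psm, a letter from a to g and a number, without the pseudogenes and without the interferon-inducible catalytic subunits *Psmb8*, *Psmb9* and *Psmb10*. The rule took 47 of the 54838 gene identifiers in the files. Expression was measured by bulk RNA-seq in organoids from intestinal crypts of mice that carried Vil-CreERT2 and *Mettl3* fl/fl, and 7 libraries were analysed. Every library, the EtOH controls included, carried both the floxed *Mettl3* alleles and the Cre recombinase, which is driven by the villin promoter and is therefore limited to epithelial cells, and which is activated by 4-hydroxytamoxifen (4-OHT). The methods give mice of 2 to 4 months, and the labels name C57BL/6. The organoids received the solvent EtOH or 500 nM 4-OHT for 2 days, to delete *Mettl3*, an enzyme that methylates adenosine in RNA. They also received DMSO or necrostatin-1 (Nec-1), an inhibitor of the kinase RIPK1, for 5 days, at 5 µM by the figure legend and 10 µM by the methods. There was 1 library of 4-OHT Nec-1 and there were 2 of each other group (EtOH with DMSO, EtOH with Nec-1 and 4-OHT with DMSO). No library received 4-OHT without floxed alleles, so the drug and the deletion cannot be told apart.

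The proteasome degrades proteins tagged with ubiquitin. Its barrel, the 20S core, is built of outer alpha rings that gate the entrance and inner beta rings that hold the catalytic sites. The 19S particle caps the barrel, and its ATPases unfold the tagged protein while its non-ATPase subunits bind ubiquitin and remove it. Other caps, the activators of the Psme family, open the barrel without ubiquitin, and the pair encoded by *Psme1* and *Psme2* (PA28 alpha and beta) is induced by interferon together with the immunoproteasome subunits *Psmb8*, *Psmb9* and *Psmb10*, which replace constitutive catalytic subunits. Most cells keep the constitutive genes at a high and even level, and the epithelium of the intestine renews itself fast.

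The deposited values are FPKM, fragments scaled to transcript length and to the number of mapped fragments, so levels are per length and can be set side by side between genes. FPKM summed to between 450207 and 498712 per library. The spacing of the lowest values gave relative depths between 0.853 and 1.03, while counts of fragments were not analysed here. *Mettl3* did not fall in the libraries labelled 4-OHT, at 2.70 and 2.71 FPKM under EtOH DMSO, 2.41 and 2.47 under EtOH Nec-1, then 3.72 and 4.14 under 4-OHT DMSO, and 3.36 under 4-OHT Nec-1. These values cover the whole gene and not the floxed part, and directions between EtOH and 4-OHT therefore rest on the labels of the libraries. All 6 epithelial markers reached 1 FPKM, and their sum lay between 2058 and 2963 FPKM per library. None of the 5 fibroblast, 5 immune and 2 endothelial markers reached 1 FPKM, and their sums stayed at or below 0.137, 0.123 and 0.132 FPKM. The labels do not say that libraries of a group came from separate cultures or animals, so p-values measure only the spread between these libraries.

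Of the 47 genes, 45 passed the filter of at least 1 FPKM in at least 2 libraries. The exceptions were *Psma8* and *Psmb11*, the forms of an alpha and a beta subunit known from testis and thymus, which were listed at 0 in all 7 libraries. The median over the 45 genes of the mean level was 32.5 FPKM, beside 5.65 over all 12702 genes that passed, and 41 of the 45 lay above that overall median. The highest level was that of the alpha subunit *Psma6*, with 149 and 126 FPKM in EtOH DMSO. The mean levels within the 20S core spanned 7.22-fold, although the subunits are present in equal number in the assembled barrel, and those within the 19S particle spanned 5.05-fold. The lowest levels belonged to *Psmc3ip*, at 1.54 and 1.72 FPKM in EtOH DMSO, which the rule took by its symbol only. It encodes a factor of meiotic recombination that is not a proteasome subunit. *Psme2b* is a near-identical copy of *Psme2*, and how fragments were divided between both is uncertain.

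The genes lay on 16 chromosomes, with 10 on chromosome 11 and 6 on chromosome 14. *Psme1* (ENSMUSG00000022216, chr14:55578494-55581527, GRCm38.p6) and *Psme2* (ENSMUSG00000079197, chr14:55587440-55591101) are neighbours, with 5913 bases between them. For the interferon-inducible pair the RefSeq promoters (GRCm38.p6), from 250 bases before to 50 bases after the start of the gene, are shown whole because the results below turn on these genes. For *Psmd4* and *Psmg4*, which also rose in 4-OHT DMSO, 60 bases around the motif are shown. Capitals mark matches to an ISRE-like motif, the letters of the interferon-stimulated response element taken as GAAA, any 2 bases and again GAAA, and searched on both strands.
Psme1: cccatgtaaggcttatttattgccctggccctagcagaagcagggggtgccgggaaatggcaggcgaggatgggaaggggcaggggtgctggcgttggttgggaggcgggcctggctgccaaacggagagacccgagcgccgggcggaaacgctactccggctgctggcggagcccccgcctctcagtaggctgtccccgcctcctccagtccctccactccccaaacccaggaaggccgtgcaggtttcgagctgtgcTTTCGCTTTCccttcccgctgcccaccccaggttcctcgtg
Psme2: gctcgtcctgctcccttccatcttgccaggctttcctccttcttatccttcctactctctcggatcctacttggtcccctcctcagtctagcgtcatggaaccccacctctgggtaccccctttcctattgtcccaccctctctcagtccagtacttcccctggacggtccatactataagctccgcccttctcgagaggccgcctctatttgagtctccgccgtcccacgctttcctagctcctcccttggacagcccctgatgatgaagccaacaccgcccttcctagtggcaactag
Psmd4: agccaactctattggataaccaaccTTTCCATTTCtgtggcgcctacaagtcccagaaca
Psmg4: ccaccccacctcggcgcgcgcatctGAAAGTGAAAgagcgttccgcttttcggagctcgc
The *Psme1* sequence is chr14:55578244-55578543 on the plus strand and the *Psme2* sequence is chr14:55591052-55591351 on the minus strand. The *Psmd4* window is chr3:95042660-95042719 on the minus strand and the *Psmg4* window is chr13:34162954-34163013 on the plus strand. Promoters were found for 39 of the 47 genes, and 5 of these genes held the ISRE-like letters (*Psmb3*, *Psmd4*, *Psmd9*, *Psme1* and *Psmg4*). Counted by promoter, 5 of the 42 listed for these genes (11.9%) held them, beside 3.44% of all 32851 promoters of this length. With the first base of the gene counted as 0, the match in *Psme1* ran from base 9 to base 18, that in *Psmg4* from 15 to 24 and that in *Psmd4* from -80 to -71. These letters were not in either of the windows listed for *Psme2*. In the comparison of 4-OHT DMSO with EtOH DMSO given below, *Psmb3* and *Psmd9* did not pass the test. The ARE-like letters TGACNNNGC, after the site of the stress factors *Nfe2l1* and *Nfe2l2*, were in the promoters of *Psmb5*, *Psmb6*, *Psmc6*, *Psmd9*, *Psmd12* and *Psme4*. That was 6 of the 42 promoters (14.3%), near the 12.4% of all promoters. The GAS-like letters TTCNNNGAA, after the interferon-gamma activated site, were in 2 of the 42 promoters (4.76%), beside 8.30% of all promoters. Those 2 promoters belonged to *Psmd2* and *Psmg1*, and neither *Psme1* nor *Psme2* held the letters. No match overlapped a match to another motif.

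The first comparison asked how the proteasome genes differed between organoids labelled 4-OHT and EtOH without the inhibitor. In 4-OHT DMSO 16 of the 45 genes rose, 1 fell and 28 did not pass the test (limma, adjusted p under 0.05 with Benjamini-Hochberg adjustment over 12702 genes). Among all genes tested 24.5% rose and 16.7% fell. The genes that rose were mostly those of the 19S cap (9 of 17), while 2 of the 14 tested 20S subunits rose. The median log2 fold change of the 45 genes was 0.24, beside 0.077 over all genes tested. With each library centred on its median, which moved the median of all genes to -0.080, 7 of the 45 rose and 3 fell, where 17.4% of all genes rose and 25.1% fell. The 7 genes were *Psmd4*, *Psmd7*, *Psmd10*, *Psmd12*, *Psme1*, *Psme2* and *Psmg4*, and each of them had also risen without centring. With centring 3 of the 17 genes of the 19S cap rose, near the 17.4% of all genes, so the larger share above depended on the scaling. No 20S subunit rose with centring, and 2 of the 14 tested fell.

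**Figure D1:**
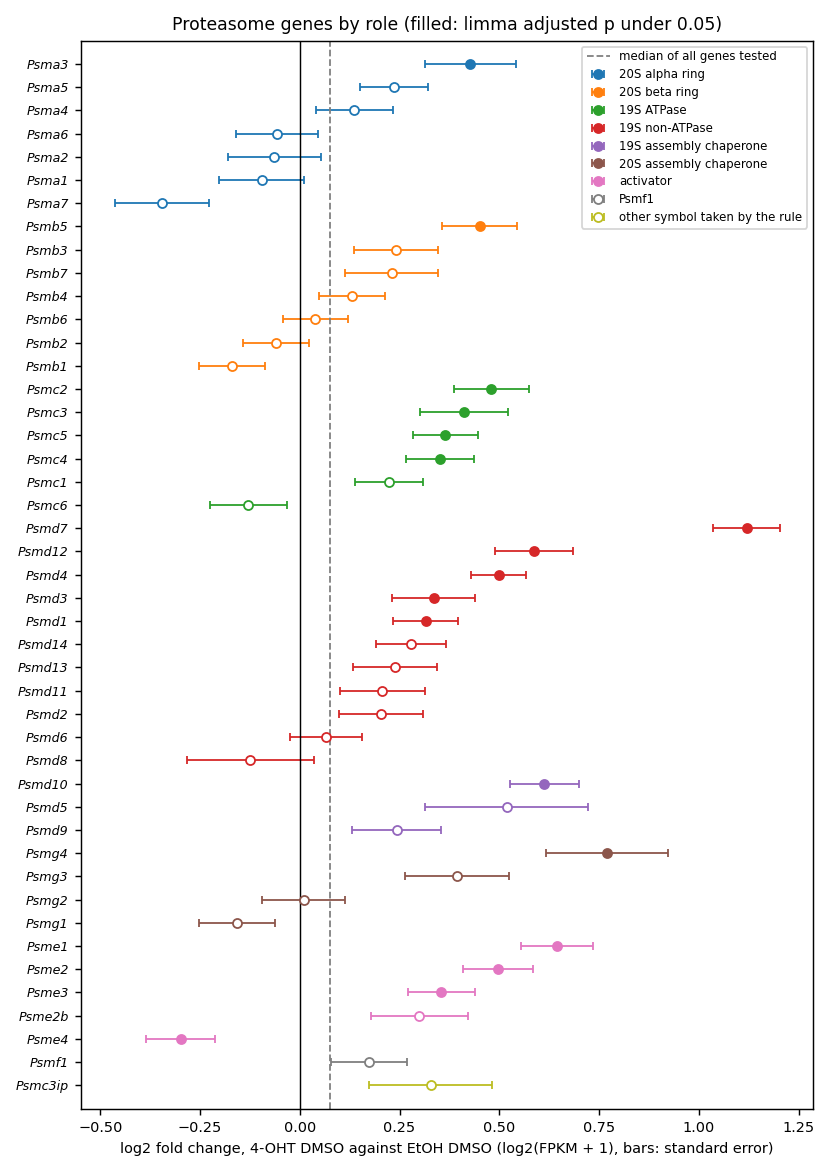
Log2 fold change between 4-OHT DMSO and EtOH DMSO on the log2(FPKM + 1) scale (horizontal axis) for the 45 genes tested (vertical axis), coloured by role. Bars are standard errors, filled points passed limma at an adjusted p under 0.05, and the dashed line is the median of all 12702 genes, 0.077. *Psmd7* stands farthest to the right at 1.12, and 4 of the 7 tested alpha subunits lie left of 0.

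Among the non-ATPase subunits of the 19S particle, 5 of 11 rose. The largest difference was that of *Psmd7* (ENSMUSG00000039067, chr8:107580380-107588482), the subunit that pairs with the deubiquitinase *Psmd14*. Its level was 48.0 and 44.8 FPKM under EtOH DMSO, 41.6 and 42.3 under EtOH Nec-1, then 106 and 97.7 under 4-OHT DMSO, and 81.5 under 4-OHT Nec-1. All 3 libraries labelled 4-OHT lay above all 4 labelled EtOH. Between EtOH DMSO and 4-OHT DMSO it rose by 1.12 on the log2 scale (with a standard error, SE, of 0.083, adjusted p = 0.000792 by limma), a ratio of mean FPKM of 2.20. *Psmd12*, a structural subunit of the lid of the cap, was at 29.3 and 26.3 FPKM under EtOH DMSO, 27.3 and 29.0 under EtOH Nec-1, then 44.5 and 40.03 under 4-OHT DMSO, and 36.0 under 4-OHT Nec-1. Here too all 3 libraries labelled 4-OHT lay above all 4 labelled EtOH, with a log2 fold change of 0.59 (standard error 0.098, limma adjusted p = 0.00741). *Psmd4*, a receptor for ubiquitin chains, was at 30.3 and 30.2 FPKM under EtOH DMSO, 29.2 and 29.7 under EtOH Nec-1, then 43.1 and 43.2 under 4-OHT DMSO, and 36.0 under 4-OHT Nec-1. Its libraries agreed closely within each group, and it rose by 0.50 on the log2 scale (SE 0.069, adjusted p = 0.00428 by limma). *Psmd3*, a lid subunit, and *Psmd1*, the large scaffold of the base, rose by 0.34 and 0.32 on the log2 scale. *Psmd3* passed narrowly (limma adjusted p = 0.0498), and the call was lost in 14 of 17 alternatives. That of *Psmd1* was lost in 10 of 17. *Psmd14* itself, at 33.9 and 31.1 FPKM in EtOH DMSO and 40.9 and 38.3 in 4-OHT DMSO, had a log2 fold change of 0.28 and missed the threshold (limma adjusted p = 0.0519). *Psmd8*, a lid subunit, had a log2 fold change of -0.12 with groups that overlapped.

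Of the 6 ATPases of the 19S ring, 4 rose, with log2 fold changes of 0.48 for *Psmc2*, 0.41 for *Psmc3*, 0.36 for *Psmc5* and 0.35 for *Psmc4* (limma adjusted p between 0.0125 and 0.0321). *Psmc2* was at 14.3 and 12.5 FPKM in EtOH DMSO and at 19.4 and 18.6 in 4-OHT DMSO, so that the groups did not overlap. *Psmc6* was at 38.6 and 33.1 FPKM in EtOH DMSO and at 32.8 and 32.4 in 4-OHT DMSO, and its log2 fold change of -0.13 did not pass (limma adjusted p = 0.326). With median centring none of the 6 ATPases passed limma at an adjusted p under 0.05, 2 did so at an unadjusted p under 0.05, and their median log2 fold change was 0.20 instead of 0.36.

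In the 20S core, the alpha ring had a median log2 fold change of -0.058 and the beta ring of 0.13, which became -0.22 and -0.026 with median centring. The 1 alpha subunit that rose was *Psma3*, at 20.8 and 17.2 FPKM in EtOH DMSO and 24.6 and 27.0 in 4-OHT DMSO (log2 fold change 0.43, limma adjusted p = 0.0317). The call of *Psma3* was lost in 9 of 17 alternatives. *Psma7* had the lowest log2 fold change of all 45 genes. Its level was 49.7 and 40.7 FPKM under EtOH DMSO, 46.7 and 42.0 under EtOH Nec-1, then 34.7 and 35.7 under 4-OHT DMSO, and 28.2 under 4-OHT Nec-1. All libraries labelled 4-OHT lay below all labelled EtOH, yet the log2 fold change of -0.35 (standard error 0.12) did not pass (limma adjusted p = 0.0664), and it passed with median centring. The log2 fold changes of *Psma1*, *Psma2* and *Psma6* were -0.095, -0.065 and -0.058, with groups that overlapped. The 1 beta subunit that rose was *Psmb5*, which carries the chymotrypsin-like site, at 56.0 and 54.3 FPKM in EtOH DMSO and 81.2 and 70.5 in 4-OHT DMSO (log2 fold change 0.45, limma adjusted p = 0.0146). The call of *Psmb5* was lost in 4 of 17 alternatives. The other catalytic subunits, *Psmb6* and *Psmb7*, had log2 fold changes of 0.039 and 0.23 and did not pass. *Psmb1* and *Psmb2*, structural subunits of the beta ring, had -0.17 and -0.060 without passing, and *Psmb1* passed as lower with median centring.

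The ratio of the geometric mean of the 17 genes of the 19S particle to that of the 14 tested genes of the 20S core does not depend on the scaling of a library. It was 0.511 and 0.543 under EtOH DMSO, 0.504 and 0.512 under EtOH Nec-1, then 0.642 and 0.610 under 4-OHT DMSO, and 0.591 under 4-OHT Nec-1. All 3 libraries labelled 4-OHT lay above the 4 labelled EtOH. No test was made of this ratio, since the genes were grouped with results of these data known.

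The assembly chaperones build both parts of the complex. *Psmd10*, the chaperone known as gankyrin that guides the 19S base, was at 15.2 and 14.4 FPKM under EtOH DMSO, 14.95 and 13.4 under EtOH Nec-1, then 23.2 and 23.0 under 4-OHT DMSO, and 17.7 under 4-OHT Nec-1. It rose by 0.61 on the log2 scale in 4-OHT DMSO (SE 0.087, adjusted p = 0.00463 by limma). *Psmd5* had a log2 fold change of 0.52 with libraries that lay far apart, 3.69 and 5.07 FPKM in EtOH DMSO and 8.06 and 5.45 in 4-OHT DMSO (limma adjusted p = 0.0948). *Psmg4*, a chaperone of the alpha ring, was at 11.9 and 12.4 FPKM under EtOH DMSO, 9.64 and 13.2 under EtOH Nec-1, then 22.5 and 20.4 under 4-OHT DMSO, and 12.7 under 4-OHT Nec-1. It was high in both 4-OHT DMSO libraries only, and there it had risen by 0.77 on the log2 scale (SE 0.15, adjusted p = 0.0129 by limma). Without either the first or the second EtOH DMSO library its limma adjusted p was 0.0676 or 0.0545. The other 20S assembly chaperones did not pass, with log2 fold changes of 0.39 for *Psmg3*, 0.0092 for *Psmg2* and -0.16 for *Psmg1*. *Psmg3* was at 7.56 and 7.56 FPKM under EtOH DMSO, and at 11.2 and 9.32 under 4-OHT DMSO (limma adjusted p = 0.0599).

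Of the activators, *Psme1*, *Psme2* and *Psme3* rose and *Psme4* fell. *Psme1* was at 23.8 and 23.7 FPKM under EtOH DMSO, 24.0 and 21.1 under EtOH Nec-1, then 37.1 and 38.3 under 4-OHT DMSO, and 20.2 under 4-OHT Nec-1. *Psme2* was at 41.7 and 41.8 FPKM under EtOH DMSO, 43.7 and 39.2 under EtOH Nec-1, then 57.4 and 61.4 under 4-OHT DMSO, and 37.2 under 4-OHT Nec-1. Both genes were high in the 4-OHT DMSO libraries and lowest of all 7 libraries in 4-OHT Nec-1. The log2 fold change between 4-OHT DMSO and EtOH DMSO was 0.64 for *Psme1* (standard error 0.089, limma adjusted p = 0.00421) and 0.50 for *Psme2* (standard error 0.088, limma adjusted p = 0.00880). *Psme3*, the nuclear PA28 gamma, which is not part of the interferon-inducible pair, was at 40.2 and 45.01 FPKM under EtOH DMSO, 37.2 and 37.1 under EtOH Nec-1, then 55.2 and 54.1 under 4-OHT DMSO, and 49.0 under 4-OHT Nec-1. It rose by 0.35 on the log2 scale (limma adjusted p = 0.0225) and stayed above all EtOH libraries in 4-OHT Nec-1. The call was lost in 8 of 17 alternatives, median centring among them (limma adjusted p = 0.0895). *Psme4*, the large activator PA200, was at 11.2 and 12.4 FPKM under EtOH DMSO, 11.6 and 11.99 under EtOH Nec-1, then 9.39 and 9.39 under 4-OHT DMSO, and 8.59 under 4-OHT Nec-1. It fell by 0.30 on the log2 scale (limma adjusted p = 0.0399), although the call was lost in 8 of 17 alternatives. With median centring the log2 fold change of *Psme4* was -0.46 and passed (limma adjusted p = 0.00721). The copy *Psme2b* had a log2 fold change of 0.30 that did not pass (limma adjusted p = 0.102), and *Psmf1*, an inhibitor of the 20S core, had 0.17 (limma adjusted p = 0.197).

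**Figure D2:**
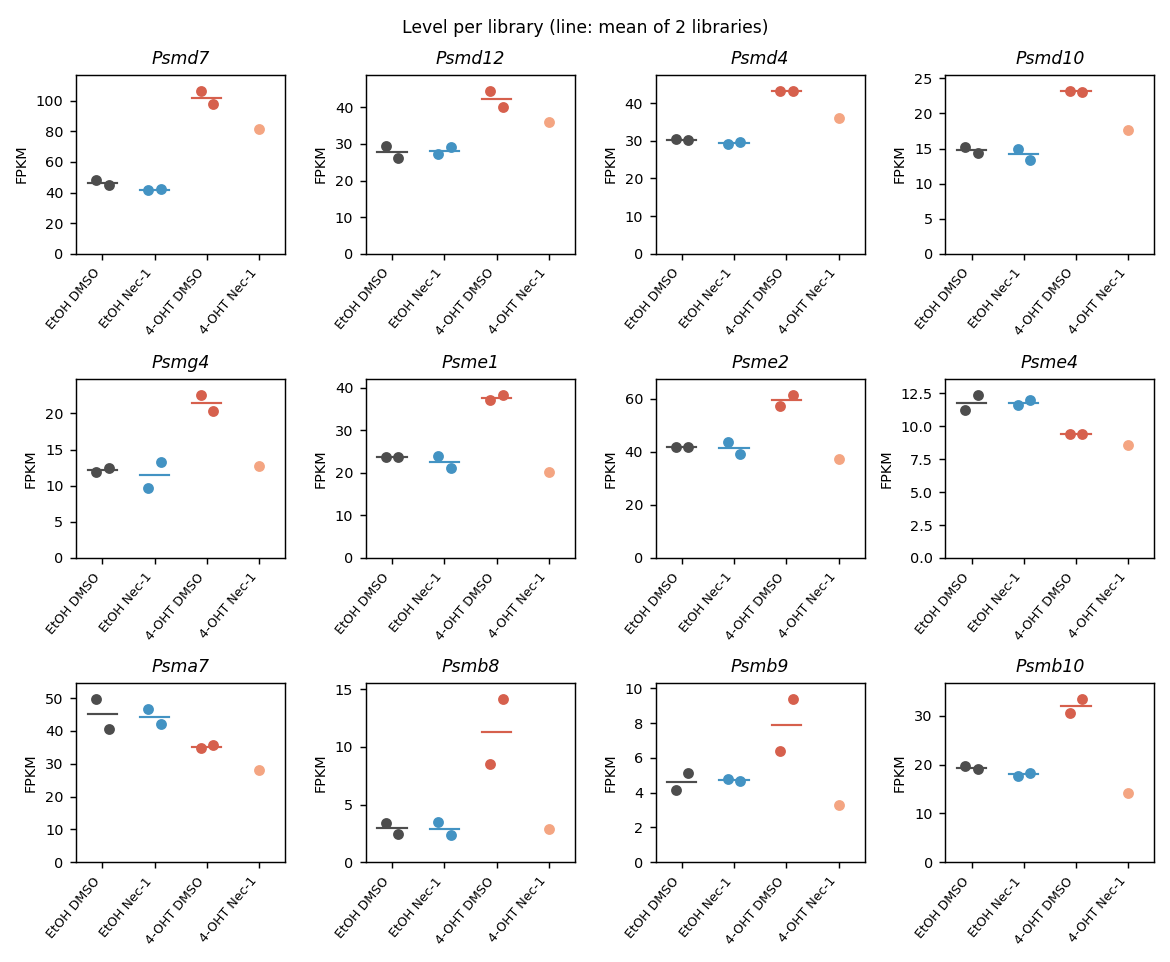
FPKM (vertical axis, from 0) of 12 genes in each library, grouped by treatment (horizontal axis). Points are libraries and lines are means of 2 libraries. *Psmd7* and *Psmd12* stay high in 4-OHT Nec-1 (81.5 and 36.0 FPKM), while *Psme1* and *Psme2* are at 20.2 and 37.2 FPKM there, below every other library.

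Of these 17 calls, those of *Psmd4*, *Psmd7*, *Psmd10*, *Psmd12*, *Psme1* and *Psme2* (6) held under every alternative run. The number of genes called changed when single libraries were left out. It was 9 without the second EtOH DMSO library and 10 without either EtOH Nec-1 library or without the first 4-OHT DMSO library. The EtOH Nec-1 libraries are not part of this comparison. Leaving either of them out kept the log2 fold changes and changed only the estimate of the spread. In the same comparison 4 of the 6 epithelial markers rose, *Cdh1* with a log2 fold change of 0.66, *Krt20* with 0.63, *Vil1* with 0.51 and *Krt8* with 0.43 (limma adjusted p between 0.00333 and 0.0318), while *Cdx2* and *Epcam* had -0.22 and -0.11 without passing. With median centring *Krt8* no longer passed (limma adjusted p = 0.140), and *Cdx2* passed as lower (-0.38, limma adjusted p = 0.0165). Whether these markers had a part in the result was not tested, and fewer cells of a type and less RNA per cell cannot be told apart in bulk samples.

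The immunoproteasome subunits, which the rule left out, all rose (3 of 3), and with median centring 2 of 3 rose. *Psmb8* was at 3.44 and 2.46 FPKM under EtOH DMSO, 3.48 and 2.32 under EtOH Nec-1, then 8.49 and 14.1 under 4-OHT DMSO, and 2.88 under 4-OHT Nec-1 (log2 fold change 1.61 between 4-OHT DMSO and EtOH DMSO, limma adjusted p = 0.00826). *Psmb10* had a log2 fold change of 0.69 and *Psmb9* of 0.64 (limma adjusted p = 0.00271 and 0.0423). The call of *Psmb9* was lost in 10 of 17 alternatives, with median centring at a limma adjusted p of 0.0787. Set against the constitutive subunit it replaces, the ratio of *Psmb8* to *Psmb5* was 0.0615 and 0.0452 in EtOH DMSO, 0.0619 and 0.0425 with EtOH Nec-1, 0.105 and 0.200 in 4-OHT DMSO, then 0.0417 in 4-OHT Nec-1. The ratio of *Psmb10* to *Psmb7* was 0.467 and 0.564, then 0.504 and 0.494, then 0.681 and 0.757, and then 0.413 in the same groups. For *Psmb9* and *Psmb6* it was 0.0557 and 0.0760, then 0.0772 and 0.0730, then 0.0859 and 0.131, and then 0.0540. The lower 4-OHT DMSO value of this pair was little above the highest EtOH value. In every library the constitutive subunit was the higher one of each pair. The ratio of *Psme1* to *Psme3* was 0.593 and 0.527 in EtOH DMSO, 0.644 and 0.567 with EtOH Nec-1, 0.672 and 0.709 in 4-OHT DMSO, then 0.411 in 4-OHT Nec-1. For *Psme2* and *Psme3* the same ratio was 1.04 and 0.929, then 1.17 and 1.06, then 1.04 and 1.14, and then 0.760. The 4-OHT DMSO values overlapped those of EtOH Nec-1, the lower of them was almost equal to the higher EtOH DMSO value, and 4-OHT Nec-1 was the lowest library.

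**Figure D3:**
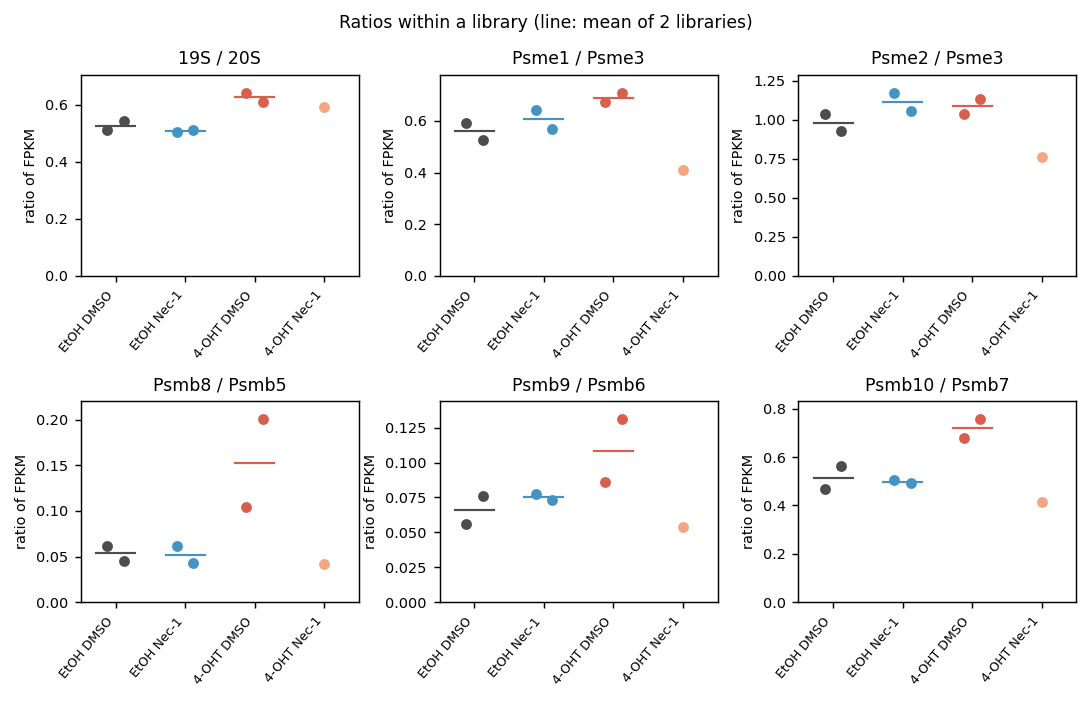
Ratio of FPKM within a library (vertical axes, from 0) by group (horizontal axis), for the 19S particle over the 20S core, 2 activators over *Psme3* and the 3 immunoproteasome subunits over their constitutive counterparts. Points are libraries and lines are means of 2 libraries. The 19S to 20S ratio is high in all 3 libraries labelled 4-OHT (0.591 to 0.642), while each other ratio is lowest in 4-OHT Nec-1, by a small margin for *Psmb8* over *Psmb5* (0.0417) and *Psmb9* over *Psmb6* (0.0540).

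Genes that work with the proteasome were read from a list of 21 partners and 4 regulators. Of the partners, 7 rose and 1 fell between 4-OHT DMSO and EtOH DMSO, beside 24.5% and 16.7% of all genes. With median centring the balance turned, and 3 rose and 5 fell, beside 17.4% and 25.1% of all genes. *Ubqln2*, a shuttle that carries ubiquitylated proteins to the proteasome, rose from 6.57 and 5.98 to 12.9 and 11.6 FPKM (log2 fold change 0.86, limma adjusted p = 0.00251). The polyubiquitin gene *Ubb* rose by 0.54 on the log2 scale (limma adjusted p = 0.0129). *Ecpas*, a scaffold that binds the proteasome, fell by 0.35 on the log2 scale (limma adjusted p = 0.0229). *Pomp*, the maturation factor of the 20S core, rose by 0.41 (limma adjusted p = 0.0166), a call that was lost with median centring (limma adjusted p = 0.09997). *Nfe2l1*, the transcription factor that drives proteasome genes when proteasome activity falls short, was at 20.9 and 6.42 FPKM under EtOH DMSO, 7.06 and 22.8 under EtOH Nec-1, then 7.48 and 6.68 under 4-OHT DMSO, and 6.07 under 4-OHT Nec-1. The libraries of each EtOH group lay far apart from one another, and no difference was called (limma adjusted p = 0.469). *Ngly1*, the enzyme that removes sugars from the *Nfe2l1* protein, rose from 2.59 and 2.43 to 4.49 and 4.59 FPKM (log2 fold change 0.66, limma adjusted p = 0.00430), and *Ddi2*, the protease that cleaves it, had -0.35 without passing but was lower with median centring (-0.51, limma adjusted p = 0.0245). *Nfe2l2*, the oxidative stress factor, rose by 0.34 on the log2 scale (limma adjusted p = 0.0220), and did not pass with median centring (limma adjusted p = 0.155).

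The next comparison asked what Nec-1 did without 4-OHT. None of the 45 genes passed limma at an adjusted p under 0.05 when EtOH Nec-1 was set against EtOH DMSO, where 0.22% of all genes did. At an unadjusted p under 0.05 there was 1 of the 45, *Psmb2*, beside 13.3% of all genes. *Psmb2* was at 72.3 and 65.3 FPKM in EtOH DMSO and at 58.3 and 58.5 in EtOH Nec-1, a log2 fold change of -0.23 (limma adjusted p = 0.342). The largest log2 fold changes upward were 0.44 for *Psmd5*, 0.25 for *Psme2b* and 0.15 for *Psma5*, and the largest downward beside *Psmb2* were -0.32 for *Psmc3ip* and -0.23 for *Psmd9*. The values of *Psma1*, *Psmd1*, *Psme1* and *Psme2* were -0.039, 0.0012, -0.078 and -0.013. The median over the 45 genes was -0.039 and that over all genes tested was -0.094.

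The third comparison set the single 4-OHT Nec-1 library beside the 2 libraries of 4-OHT DMSO, with no test. The 4-OHT Nec-1 library lay below both DMSO libraries for 42 of the 45 genes, above both for *Psmb2* (1 of 45) and between them for *Psmd3* and *Psmg2*. Over the 12036 genes that averaged 1 FPKM or more across these libraries, 50.6% lay below both and 24.5% above. With median centring 32 of the 45 genes lay below both and 4 above, beside 32.6% and 41.3% of all genes. The median log2 difference of the 45 genes was -0.29, against -0.089 over all genes. The largest differences downward were those of *Psme1* (-0.87), *Psmc3ip* (-0.84), *Psmg4* (-0.71), *Psme2* (-0.66) and the ATPase *Psmc5* (-0.59). The least negative or positive were those of *Psmb2* (0.13), the chaperone *Psmg2* (0.055), *Psmd3* (0.019), the alpha subunit *Psma4* (-0.054) and *Psmb1* (-0.11). All 3 immunoproteasome subunits lay below both, with a median log2 difference of -1.13. The comparison uses the same 4-OHT DMSO libraries as the first, so the values of a gene in both are not independent.

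**Figure D4:**
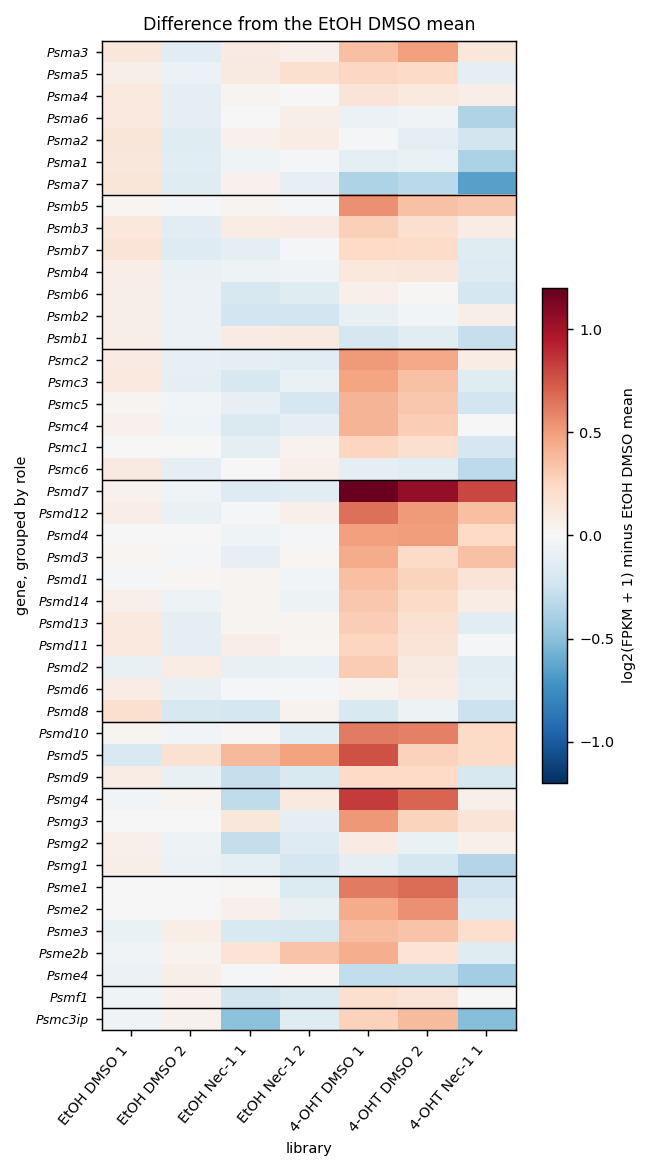
Difference of each library from the EtOH DMSO mean, in log2(FPKM + 1), for the 45 genes (rows, grouped by role, with lines between roles) in the 7 libraries (columns). Red is higher and blue lower. *Psmd7* is the darkest row in the libraries labelled 4-OHT, *Psme1* and *Psme2* are red in 4-OHT DMSO but blue in 4-OHT Nec-1, and the alpha ring is mostly blue in 4-OHT Nec-1.

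A comparison of 4-OHT Nec-1 with EtOH Nec-1, added after values had been seen, shares no library with that of 4-OHT DMSO and EtOH DMSO, and it has no test. The 4-OHT Nec-1 library lay above both EtOH Nec-1 libraries for 17 of the 45 genes and below both for 25, while 49.9% of 11746 genes lay above and 38.8% below. With median centring 11 of the 45 lay above and 29 below, where 38.4% of all genes lay above and 50.3% below. Of the 16 genes that had risen in 4-OHT DMSO, 11 lay above both EtOH Nec-1 libraries, 2 between them and 3 below both. The 3 below were *Psme1* (-0.15), *Psme2* (-0.15) and *Psmc5* (-0.079). With median centring these counts were 8, 3 and 5. The same shares among all genes that had risen in 4-OHT DMSO were not computed. These counts therefore show no trait particular to the proteasome genes. *Psmd7* kept the largest log2 difference, 0.94, followed by *Psmd3* (0.40), *Psme3* (0.39), *Psmd12* (0.35), *Psmb5* (0.32), *Psmd10* (0.30), *Psmb2* (0.30) and *Psmd4* (0.28). At the other end were *Psma7* (-0.64), *Psme4* (-0.42), *Psme2b* (-0.40), *Psma6* (-0.40), *Psmb1* (-0.38), *Psmc6* (-0.34) and *Psma1* (-0.34). Of the immunoproteasome subunits, *Psmb10* and *Psmb9* had -0.33 and -0.41 and *Psmb8* had 0.011. The interferon response genes *Irf1*, *Isg15*, *Ifit1* and *Tap1* each lay above both EtOH Nec-1 libraries, with log2 differences from 0.47 for *Tap1* to 3.89 for *Isg15*. *Isg15* was at 27.3 FPKM in 4-OHT Nec-1, at 0.557 and 1.33 in EtOH Nec-1, and at 331 and 469 in 4-OHT DMSO. Each of these interferon response genes lay below both 4-OHT DMSO libraries in 4-OHT Nec-1. So did 42 of the 45 proteasome genes, *Psme1* and *Psme2* among them, and 50.6% of all genes. The log2 differences of the interferon response genes from 4-OHT DMSO ran from -0.84 for *Irf1* to -3.80 for *Isg15*. Whether the levels of *Psme1* and *Psme2* are tied to those of these genes was not tested.

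**Figure D5:**
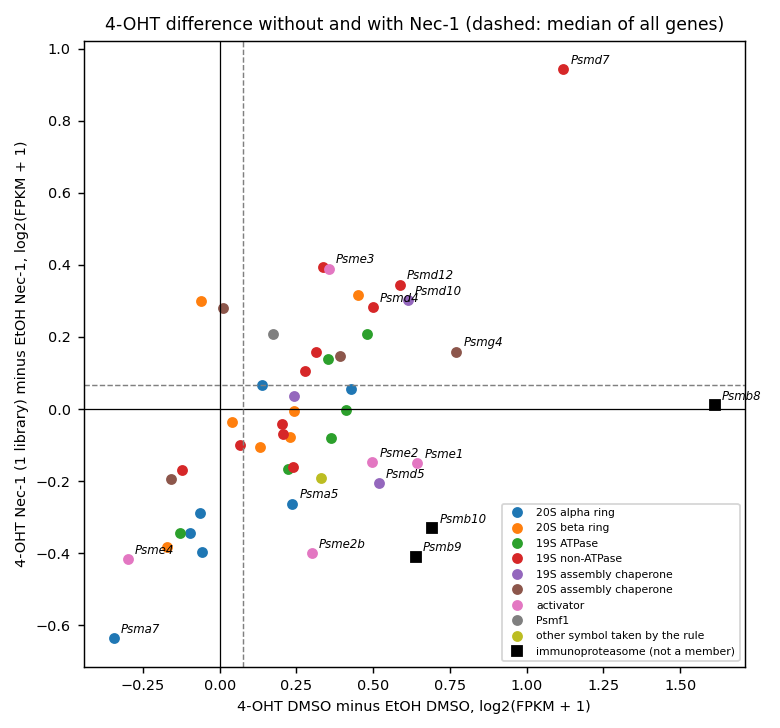
Log2 difference between 4-OHT and EtOH without Nec-1 (horizontal axis, 4-OHT DMSO against EtOH DMSO) and with it (vertical axis, the single 4-OHT Nec-1 library against EtOH Nec-1), in log2(FPKM + 1), for the 45 genes by role and the 3 immunoproteasome subunits. Dashed lines are the medians of all genes. *Psmd7* lies at 1.12 and 0.94, and *Psme1* at 0.64 and -0.15.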

How the data were processed

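Bulk RNA-seq libraries (7) of intestinal organoids were analysed, and 2 ChIP samples of the study were not used here. The authors deposited FPKM per Ensembl gene. The submitters' processing notes name HISAT2 2.1.0, StringTie 1.3.3b and mm10, and the annotation is not given in the sources used here. Symbols were matched for 54723 of 54838 identifiers, with coordinates from RefSeq GRCm38.p6. FPKM of overlapping or near-identical genes depend on how StringTie divided fragments. Tests used limma 3.58.1 (R 4.3.3) with a mean-variance trend on log2(FPKM + 1), which understates changes of low genes, over 12702 genes that reached 1 FPKM in 2 or more libraries. The fit took all 7 libraries with 1 mean per group (3 residual degrees of freedom), and p-values were adjusted by Benjamini-Hochberg. The single 4-OHT Nec-1 library was compared without a test. The code was tested on simulated data. The genes, lists and roles were chosen with earlier results of these data known. Named were the proteasome genes *Psma1*, *Psmd1*, *Psme1* and *Psme2*, the 10 largest rises and falls between 4-OHT DMSO and EtOH DMSO, the 3 largest for EtOH Nec-1, the 5 largest for 4-OHT Nec-1, and the 3 largest changes each way of partners and regulators. Other genes, such as *Psmd14*, *Psmf1*, *Pomp* and *Nfe2l2*, were named after their values were seen. One item of the lists is not reported here. Alternatives were other pseudocounts, filters and scalings, limma without the trend, fewer libraries and the replicate number as a block. Python 3.11.15, pandas 2.3.3, numpy 2.4.6 and matplotlib 3.10.9 were used.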

Additional observations from a re-analysis of the deposited data

Results flagged for a closer look

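For some genes all libraries moved one way under a contrast in 1 setting and all moved the opposite way in the other. With 1 library in 4-OHT Nec-1 the difference between the log2 changes was not tested for any of them, and small values are within the spread seen between replicates. Genes for which 4-OHT lay above EtOH without Nec-1 and below it with Nec-1 included the following, given as the change with Nec-1 minus the change without: -1.05 for *Psmb9*, -1.02 for *Psmb10*, -0.79 for *Psme1*, -0.72 for *Psmd5*, -0.70 for *Psme2b*, -0.65 for *Psme2*, -0.52 for *Psmc3ip*, -0.50 for *Psma5*, -0.44 for *Psmc5* and -0.31 for *Psmb7*. The list is not complete. *Psmc1* (0.22 without Nec-1 and -0.16 with it) and *Psmd13* (0.24 and -0.16) turned too. The difference between Nec-1 and DMSO turned between EtOH and 4-OHT organoids by -0.72 for *Psmd5*, -0.70 for *Psme2b*, -0.50 for *Psma5*, -0.24 for *Ngly1* and -0.21 for *Psmb1*, and by 0.36 for *Psmb2* and 0.21 for *Ecpas*. Here too other genes turned, such as *Nfe2l2* (-0.16 in EtOH and 0.24 in 4-OHT organoids). The share of all genes that turned was not computed, so neither list shows a trait particular to these genes. The groups held at most 2 libraries, so no library was examined as a value apart from its group.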

How the results depend on the processing

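Results are given for the genes of the constitutive proteasome. All scalings but TPM (FPKM rescaled to the same sum in each library) moved the counts called and called higher by over 1.5 times. TPM moved the count called lower between 4-OHT DMSO and EtOH DMSO from 1 to 2, and *Psma7* passed there (-0.42, limma adjusted p = 0.0256). Between 4-OHT DMSO and EtOH DMSO, 17 genes were called (16 higher), 10 with median centring (7 higher), 10 with upper quartile scaling (7 higher) and 10 in a fit of only the 4 libraries of the comparison (10 higher). The median log2 fold change of 0.24 was 0.084 with centring, 0.081 with upper quartile scaling and 0.17 with TPM. Leaving out 1 library gave 9 to 18 calls, 8 to 18 of them higher, and medians of 0.22 to 0.31. With the replicate number as a replicate block 13 genes were called, all higher, and *Psma3*, *Psmd1*, *Psmd3* and *Psme4* were lost. Libraries with the same number showed no shared shift, with correlations of deviations between groups of 0.0065, -0.012 and -0.040. These values cannot tell whether such libraries came from the same culture or animal. *Psmb6*, at 0.039, turned to -0.12 with centring, -0.13 with upper quartile scaling and -0.033 with TPM. Leaving out 1 library gave ranges that crossed 0 for *Psmb6* (-0.029 to 0.11), *Nfe2l1* (-1.44 to 0.12), *Psma1* (-0.23 to 0.038), *Psma2* (-0.21 to 0.084), *Psma6* (-0.18 to 0.061), *Psmb2* (-0.13 to 0.012) and *Psmd8* (-0.31 to 0.066), none of which had been called. Between EtOH Nec-1 and EtOH DMSO no gene was called in any alternative run, and the median of -0.039 became 0.060 with centring, 0.066 with upper quartile scaling and -0.13 with TPM. Centring and upper quartile scaling gave 0.060 and 0.066 for *Psma1*, 0.021 and 0.026 for *Psme1* and 0.087 and 0.093 for *Psme2*, and TPM gave -0.089 for *Psmd1*. Leaving out 1 library there gave -0.17 to 0.095 for *Psma1*, -0.028 to 0.031 for *Psmd1*, -0.17 to 0.012 for *Psme1* and -0.090 to 0.065 for *Psme2*. Between 4-OHT Nec-1 and 4-OHT DMSO the median of -0.29 was -0.17 with centring and -0.15 with upper quartile scaling, with 4 and 5 genes above both libraries instead of 1, and leaving out 1 library gave medians of -0.28 to -0.23 and 1 to 3 genes above. Between 4-OHT Nec-1 and EtOH Nec-1 the median of -0.041 was -0.18 with centring and -0.18 with upper quartile scaling, with 11 and 11 genes above instead of 17, and leaving out 1 library gave -0.050 to -0.016. Beyond the scalings named, the cause of a moved value was not tested. Fragment counts were not used, so the counting error of single values is unknown, and 2 libraries per group limit the precision.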
